A study of Mus musculus with 14 samples.

Results

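The 8 genes described here, out of 54347 in the tables, encode chemokines, chemokine receptors and a cytokine of lymphoid tissue. They are the CCL21 gene copies Ccl21a, Ccl21b and Ccl21d, the related chemokine gene Ccl19, the receptor gene Ccr7, the chemokine gene Cxcl13 with its receptor gene Cxcr5, and Ltb. They were chosen by name after their values in the comparisons below were known, so their values are given as a description. Results of the test over all genes are mentioned for them in places, but nothing is read from those. Differences of other genes were tested.

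RNA was sequenced from lungs of C57BL/6 mice, and every mouse had received intranasal Alternaria alternata, a fungal allergen extract, at 2 mg per dose in 40 µl on 4 days. The 14 libraries formed 3 experiments. In the bone marrow chimera experiment, irradiated recipients carrying human JAK1 gain of function (GOF, 2 libraries) were set against irradiated wild-type (WT) recipients (2 libraries). Both received 1e+07 live WT marrow cells, so the donor marrow was WT in both groups. The JAK1 GOF could thus be carried only by the recipient's own remaining cells. JAK1 is a kinase that relays cytokine receptor signals. In the intrathecal experiment, resiniferatoxin (RTX) at 25 ng per mouse on 2 days, which targets spinal afferent nerves (3 libraries), was set against 10 µl of saline (2 libraries). In the subcutaneous experiment, RTX at 30, 70 and 100 µg per kg over 3 days, which targets vagal and spinal afferents (3 libraries), was set against 100 µl of saline (2 libraries). RTX is a strong agonist of the TRPV1 channel and removes sensory neurons that carry it. The sources used here did not state the promoter or allele of the JAK1 GOF, the age and sex of the mice, or whether each library was a separate mouse. Every p-value below therefore measures the spread between libraries, which may be technical in part.

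CCL21 and CCL19 bind the receptor CCR7 and draw naive T cells and mature dendritic cells into the T cell zones of lymphoid tissue, with lymphatic vessels as a further source of CCL21. CXCL13 binds CXCR5 and draws B cells and follicular helper T cells into follicles. Lymphotoxin beta, the product of Ltb, is anchored in the membrane of lymphocytes with lymphotoxin alpha. It acts on the lymphotoxin beta receptor of stromal cells, which turns on chemokine genes of this group through the noncanonical NF-kappaB pathway. In the mouse the CCL21 gene has several near-identical copies.

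The libraries held 18198872 to 24393000 estimated counts each, so 3 counts corresponded to between 0.123 and 0.165 counts per 1e+06 total counts (CPM) in a library. The lung markers Sftpc (5453 to 10323 CPM), Ager (1285 to 2534 CPM) and Scgb1a1 (4092 to 10900 CPM) were high in all 14 libraries. The mouse gene Jak1 had 204 and 191 CPM in GOF recipients and 256 and 281 CPM in WT recipients, which does not check for the human allele. The female-specific transcript Xist had 62.9 and 73.2 CPM in GOF recipients, against 122 and 132 CPM in WT recipients (adjusted p = 0.0158, edgeR), and its part in the recipient differences was not tested. The intrathecal groups also differed in low transcripts. Xist had 0.993 to 2.45 CPM in RTX libraries, against 3.70 and 3.01 CPM in vehicle libraries (adjusted p = 0.327, edgeR). Rps3a2 had at most 0.125 CPM in each RTX library, against 4.99 and 3.80 CPM in vehicle libraries, and Hmga2 had 6.18 to 10.9 CPM in RTX libraries, against 0.5002 and 1.09 CPM in vehicle libraries. Whatever separates these libraries cannot be told apart from RTX in that experiment. In the subcutaneous experiment Rps3a2 had 6.37 and 4.71 CPM in RTX replicates 2 and 3, against at most 0.235 CPM in the other 3 libraries. Xist had 5.06 and 5.11 CPM in those RTX replicates, against at most 1.23 CPM in the others, and Hmga2 had 6.13 CPM in vehicle replicate 1, against at most 0.5045 CPM in the others. In WT recipients Rps3a2 had 4.999 CPM in replicate 1 and 0.194 CPM in replicate 2. The part of these differences in the results below was not tested.

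The 3 CCL21 copies lie on chromosome 4. In GENCODE M21 on GRCm38, Ccl21a (ENSMUSG00000094686.1) is at chr4:42772860-42773993 on the minus strand and overlaps 4930578G10Rik on the other strand. Ccl21d (ENSMUSG00000094065.1, named Gm21541 in M21) is at chr4:41903610-41904743 on the plus strand and overlaps Gm13307 on the other strand. Ccl21b appears in the tables as ENSMUSG00000095675.2, whereas M21 holds version 1 of that gene at chr4:42255767-42256432, on the plus strand. The coding sequences of all 3 copies in M21 are 402 bases long. Those of Ccl21b and Ccl21d are identical, and Ccl21a differs from them at 2 bases, T84A and C194T, with 99.5% identity. Positions are counted from 1 at the first coding base, and the base of Ccl21a stands first. The stretches around both differences are shown because they are the only coding bases by which a read can tell Ccl21a from the other copies, and the base that differs is in capitals. The first pair of lines covers coding bases 59 to 109 and the second pair bases 169 to 219.
Ccl21a: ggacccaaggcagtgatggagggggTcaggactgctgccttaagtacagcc
Ccl21b and Ccl21d: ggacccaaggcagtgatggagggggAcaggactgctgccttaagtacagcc
Ccl21a: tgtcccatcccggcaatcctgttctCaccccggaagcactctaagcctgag
Ccl21b and Ccl21d: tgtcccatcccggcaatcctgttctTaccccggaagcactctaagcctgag

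Beyond the coding part the copies also share most of their letters. Of the 840 stretches of 31 bases in the Ccl21d transcript, 677 (80.6%) also occur in the Ccl21a transcript. All 372 stretches of the M21 Ccl21b transcript, which holds the coding part alone, occur in Ccl21d. No stretch of that Ccl21b transcript tells it from Ccl21d. Of the 840 stretches of Ccl21d, 372 (44.3%) occur in that Ccl21b transcript, so the others set Ccl21d apart from it. The transcript of the version in the tables was not analysed here, and the cause of the split of reads between the copies was not tested. The promoters of Ccl21a and Ccl21d in RefSeq (GRCm38.p6) differ at 1 of 249 aligned bases before the start. They are shown for comparison, with the base that differs in capitals (109 bases before the start of Ccl21a). The part of the promoters in the levels of these copies was not tested. Since most stretches of the transcripts are shared, the values of Ccl21a and of the summed copies need not be separate measurements. The windows are chr4:42774040-42774160 on the minus strand for Ccl21a and chr4:41903443-41903563 on the plus strand for Ccl21d.
Ccl21a: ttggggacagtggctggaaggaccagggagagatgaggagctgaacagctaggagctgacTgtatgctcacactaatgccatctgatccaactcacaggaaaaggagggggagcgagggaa
Ccl21d: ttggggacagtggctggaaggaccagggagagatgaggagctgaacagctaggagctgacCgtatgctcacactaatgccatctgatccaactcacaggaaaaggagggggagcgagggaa

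Reads that did not go to Ccl21a were given to Ccl21b in some libraries and to Ccl21d in others. Only Ccl21d had counts in 9 libraries, only Ccl21b in 4 libraries, and both in 1 library. Ccl21b had 0 CPM in all 3 intrathecal RTX libraries, against 37.4 and 23.3 CPM in the intrathecal vehicle libraries. Ccl21d had 28.1, 33.9 and 37.6 CPM in the intrathecal RTX libraries, against 0 in both intrathecal vehicle libraries. With 3 counts per library as the floor, the counts given to Ccl21b were at least 224-fold lower after intrathecal RTX. Those given to Ccl21d were at least 244-fold higher. The swap was thus complete between these groups, and both genes passed the threshold of the edgeR fit, where 0.311% of 17360 genes were called. The fold bounds cover counting error only, not the assignment of reads between copies of identical coding sequence. They are not read as changes of the genes themselves. Ccl21b and Ccl21d were 2 of the 8 genes described, and nothing is read from that count because the genes were chosen with it known.

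The swap also occurred within a group. Among subcutaneous RTX libraries, Ccl21b had 19.9, 0 and 24.8 CPM, against 7.96 and 0 CPM in the vehicle libraries. Ccl21d had 0, 26.1 and 0 CPM in the subcutaneous RTX libraries, against 25.4 and 34.3 CPM in the vehicle libraries. One RTX library thus carried Ccl21d alone and the other 2 carried Ccl21b alone, under the same treatment. In the chimera experiment Ccl21b was at 0 in all 4 libraries. Ccl21d there had 40.1 and 21.5 CPM in GOF recipients, against 29.8 and 25.8 CPM in WT recipients.

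The sum of Ccl21b and Ccl21d did not show the swap. That sum was 28.1, 33.9 and 37.6 CPM after intrathecal RTX, against 37.4 and 23.3 CPM with vehicle, so the groups overlapped, and the log2 difference was 0.15 ± 0.22 (SE). It became 0.52 without vehicle replicate 1 and -0.15 without vehicle replicate 2. Its share of all 3 copies stayed between 30.5% and 39.5% in the 14 libraries, with a median of 36.5%. Among 10 further gene rows at the locus, 6 had no count in any library. One of these was Gm13304, whose 807 stretches of 31 bases all occur in Ccl21d. The neighbouring chemokine gene Ccl27a had 4.08 to 7.50 CPM.

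**Figure D1:**
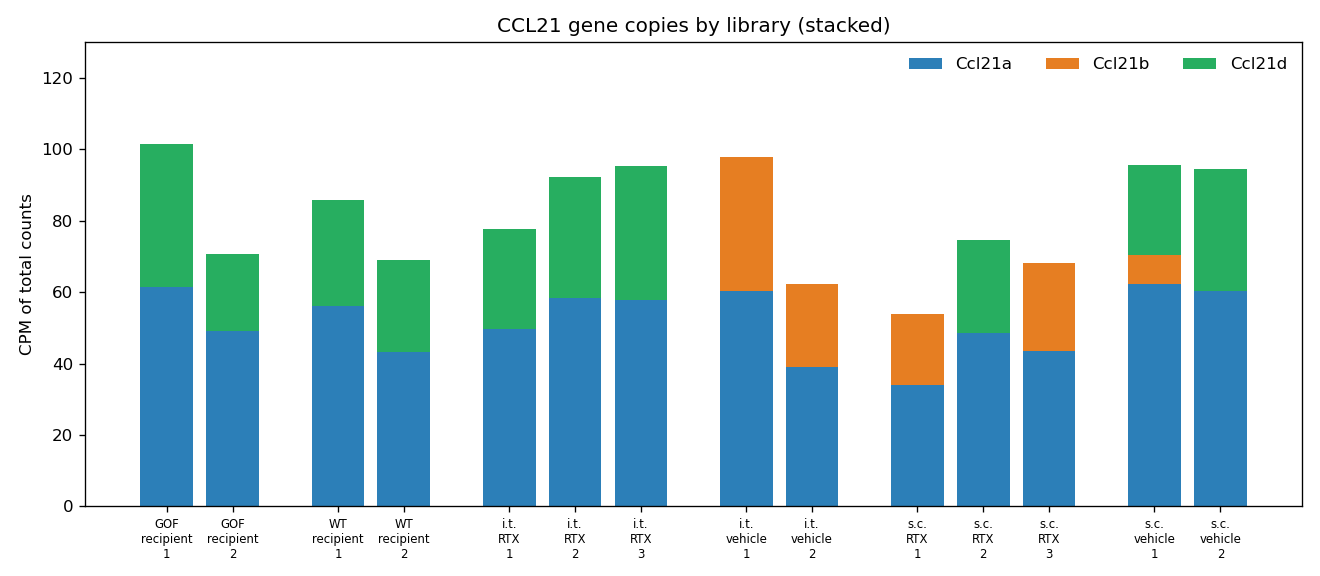
Stacked bars show the CPM of total counts given to Ccl21a, Ccl21b and Ccl21d in each of the 14 libraries, with i.t. for intrathecal and s.c. for subcutaneous. Ccl21b and Ccl21d replace each other from library to library, both between and within groups, while together they make up 30.5% to 39.5% of each bar.

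Ccl21a, the copy that differs in its coding bases, was lower after subcutaneous RTX. It had 34.2, 48.6 and 43.5 CPM in subcutaneous RTX libraries, against 62.4 and 60.4 CPM in vehicle libraries. All 3 RTX values lay below both vehicle values. The means were 42.1 ± 7.33 and 61.4 ± 1.43 CPM (SD, n = 3 and n = 2), a log2 difference of -0.56 ± 0.14 (SE). The sum of Ccl21b and Ccl21d differed by a similar amount, at -0.53 ± 0.12, with means of 23.6 ± 3.27 and 33.8 ± 0.632 CPM. For all 3 copies together the RTX libraries held 54.0 to 74.7 CPM, against 94.6 and 95.8 CPM in vehicle libraries, a log2 difference of -0.55 ± 0.13.

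The other experiments showed no such separation for Ccl21a. It had 49.6, 58.4 and 57.8 CPM after intrathecal RTX, against 60.4 and 39.1 CPM with vehicle, and the vehicle libraries lay on either side of all RTX libraries (log2 difference 0.17 ± 0.18). In the chimeras it had 61.5 and 49.1 CPM in GOF recipients, against 56.0 and 43.2 CPM in WT recipients (0.17 ± 0.15), again overlapping. Without WT recipient 1 that difference was 0.35, and without GOF recipient 1 it was -0.01. Leaving out intrathecal vehicle replicate 1 moved the intrathecal difference to 0.51, and leaving out vehicle replicate 2 moved it to -0.11.

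Ccl19, which encodes the soluble second ligand of CCR7, is at chr4:42754525-42756577 on the minus strand and also overlaps 4930578G10Rik (ENSMUSG00000071005.7). It was also lower after subcutaneous RTX, with 3.82, 4.32 and 2.99 CPM, against 7.09 and 7.89 CPM with vehicle. The groups did not overlap, and the means of 3.71 ± 0.673 and 7.49 ± 0.566 CPM gave a log2 difference of -1.03 ± 0.21. After intrathecal RTX it had 4.85, 7.23 and 3.90 CPM, against 6.96 and 6.24 CPM with vehicle, so the groups overlapped (-0.30 ± 0.25). GOF recipients had 5.26 and 2.89 CPM, against 5.63 and 4.95 CPM in WT recipients, a difference of -0.36 ± 0.30 that became -0.86 without GOF recipient 1 and -0.01 without GOF recipient 2. The pseudogenes Ccl19-ps1 and Ccl19-ps3 had no counts in any library.

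Markers of the cells that make these ligands were measured beside them. The lymphatic endothelium list (Prox1, Lyve1, Pdpn and 8 others) summed to 823 to 936 CPM in subcutaneous RTX libraries, against 906 to 940 CPM in vehicle libraries. Of its 11 genes 0 passed the test in either direction in the subcutaneous comparison, and their median log2 difference was -0.09, with -0.0045 over all genes tested. Differences were positive for 5 of the 11. The genes of lowest p were Nts (1.02 ± 0.38, adjusted p = 0.226) and Nrp2 (0.30 ± 0.12, adjusted p = 0.248), both higher after RTX. The list of lymphoid stroma and high endothelial venules summed to 1206 to 1297 CPM after subcutaneous RTX, against 1314 to 1323 CPM with vehicle. All 8 of its genes tested had negative differences (median -0.19), and 0 passed. Chst4, a sulfotransferase of high endothelial venules, had 7.62 ± 0.606 CPM after RTX, against 11.3 ± 0.858 CPM with vehicle (log2 difference -0.58 ± 0.15, adjusted p = 0.137). In GOF recipients 0 of 11 lymphatic and 0 of 8 stromal genes passed, and the stromal median was -0.02. Vcam1, an adhesion molecule of stroma and activated endothelium, had 113 ± 12.2 CPM there and 170 ± 17.9 CPM in WT recipients (-0.58 ± 0.14, adjusted p = 0.0930). In bulk lung RNA, fewer cells of a type and less RNA per cell cannot be told apart, here or below.

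The receptor gene Ccr7 (ENSMUSG00000037944.8, chr11:99144196-99155077, minus strand) is expressed by naive and central memory lymphocytes and by migratory dendritic cells. After subcutaneous RTX it had 42.8, 38.3 and 42.3 CPM, against 31.6 and 35.4 CPM with vehicle. Every RTX value was above both vehicle values, although the log2 difference was small, at 0.28 ± 0.09 (means 41.2 ± 2.46 and 33.5 ± 2.73 CPM). Ccr7 was thus higher in the libraries in which both of its ligands were lower. In GOF recipients it had 12.4 and 13.1 CPM, against 29.3 and 16.1 CPM in WT recipients, a log2 difference of -0.82 ± 0.25 that became -0.35 when WT recipient 1 was left out. After intrathecal RTX it had 25.2, 26.3 and 22.7 CPM, against 24.5 and 20.3 CPM with vehicle, and the groups overlapped (0.16 ± 0.11).

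Lists of the cells that carry CCR7 were set beside it. In GOF recipients 3 of 13 genes of naive and central memory T cells fell and 0 rose by the edgeR test, and all 13 had negative differences (median -0.69, against 5e-04 over all genes tested). They included Il7r, the receptor chain for the survival cytokine IL-7 (-1.09 ± 0.15, adjusted p = 0.0123), and Cd3e of the T cell receptor complex (-0.98 ± 0.19, adjusted p = 0.0443). Il7r kept its call when any single library was left out, while Cd3e lost it without either GOF recipient. The call of Cd3e was also lost with limma voom, without the robust prior, in the joint fit of 14 libraries and with the replicate block. The list summed to 275 to 289 CPM in GOF recipients, against 341 to 402 CPM in WT recipients. Of 15 genes of mature migratory dendritic cells 0 passed there, with a median of -0.48. Among them, Il4i1, an amino acid oxidase, had 9.41 ± 1.27 CPM in GOF recipients and 31.9 ± 12.1 CPM in WT recipients (-1.75 ± 0.28, adjusted p = 0.0530), and the adaptor gene Samsn1 differed by -0.72 ± 0.15 (adjusted p = 0.0573).

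After subcutaneous RTX the dendritic cell list summed to 861 to 885 CPM, against 756 to 806 CPM with vehicle, and 0 of its 15 genes passed (median 0.34). Fscn1, the actin-bundling protein of mature dendritic cells, had 105 ± 5.90 CPM after RTX and 72.0 ± 11.3 CPM with vehicle (0.53 ± 0.11, adjusted p = 0.117). Tbc1d4 differed by 0.36 ± 0.09 (adjusted p = 0.132). Of the T cell list 0 of 13 passed (median 0.18), with Il7r at 0.59 ± 0.13 (adjusted p = 0.126) and Bcl11b, a T cell transcription factor, at 0.54 ± 0.21 (adjusted p = 0.240). The part of these cells in the Ccr7 values was not tested.

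**Figure D2:**
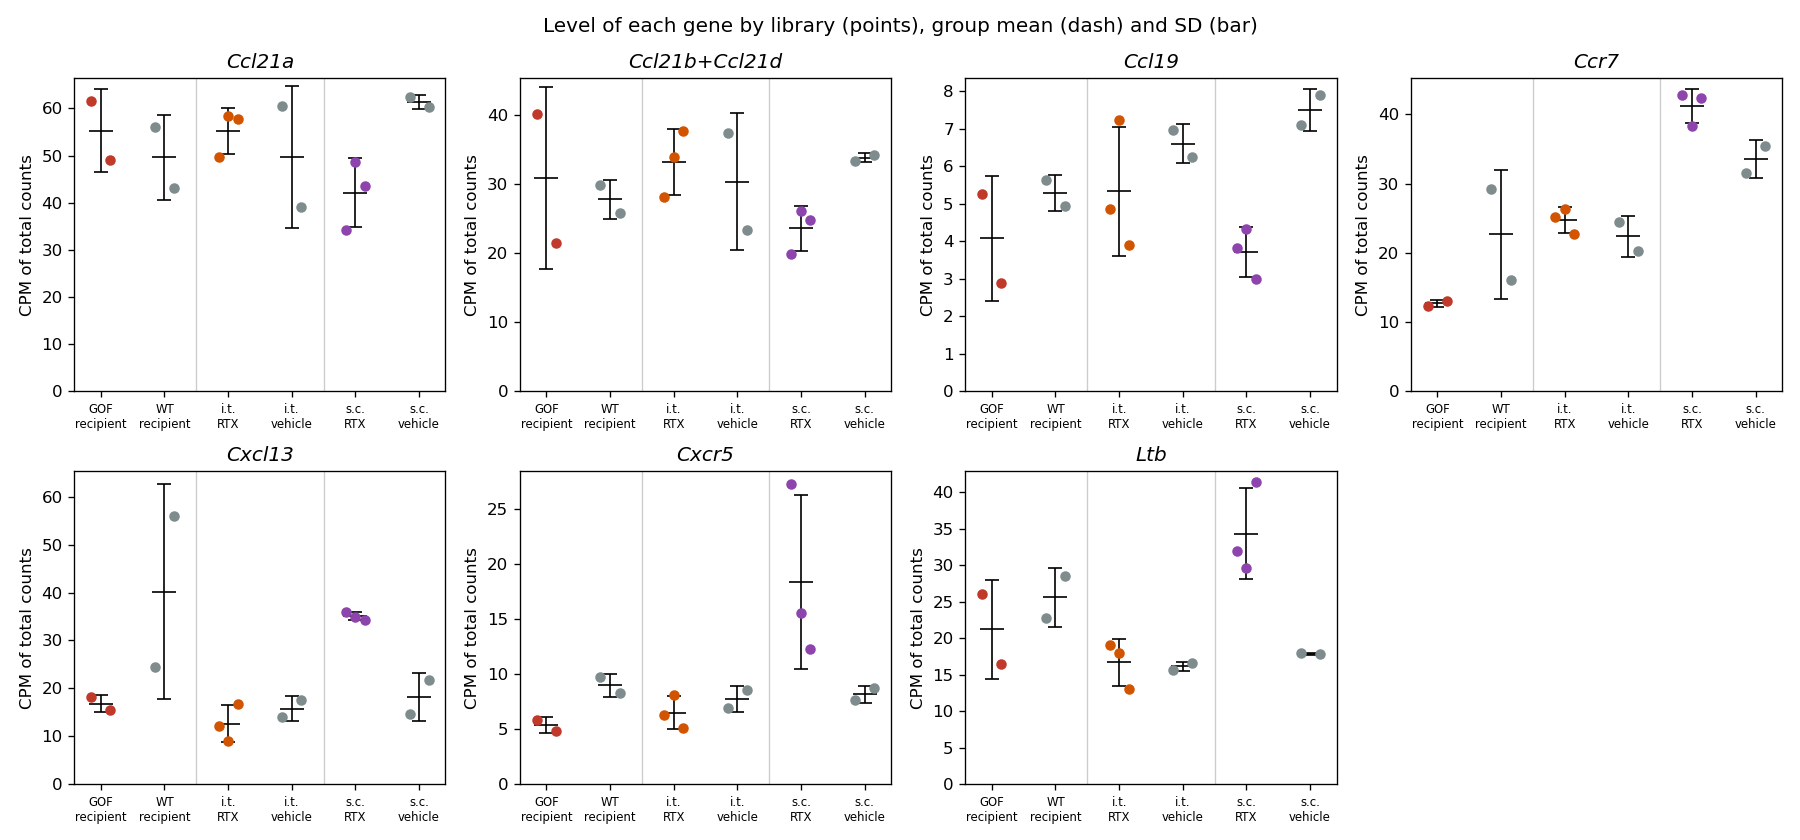
Points show CPM of total counts per library for each gene, with Ccl21b and Ccl21d summed, and dashes and bars show the mean and SD of each group (n = 2 or 3). The points of subcutaneous RTX and its vehicle do not overlap in these panels, as for 38.3% of all genes tested there, with Ccl21a, the summed copies and Ccl19 lower and Ccr7, Cxcl13, Cxcr5 and Ltb higher after RTX.

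Cxcl13, the B cell chemokine gene of follicular stroma, is at chr5:95956951-95961068 on the plus strand (ENSMUSG00000023078.6). It had 35.9, 34.9 and 34.2 CPM after subcutaneous RTX, against 14.7 and 21.8 CPM with vehicle. The RTX libraries lay close together and above both vehicle libraries, with means of 35.04 ± 0.854 and 18.3 ± 5.04 CPM and a log2 difference of 0.93 ± 0.16. In GOF recipients it had 18.1 and 15.6 CPM, against 24.4 and 56.0 CPM in WT recipients. Both GOF values were below both WT values, but the WT libraries differed widely, and the log2 difference of -1.25 ± 0.51 became -0.51 without WT recipient 2. After intrathecal RTX it had 12.1, 9.13 and 16.8 CPM, against 13.96 and 17.6 CPM with vehicle, overlapping (-0.29 ± 0.25).

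Its receptor gene Cxcr5 (ENSMUSG00000047880.15, chr9:44511787-44561877, minus strand, overlapping Bcl9l on the other strand) marks mature B cells and follicular helper T cells. Cxcr5 had 27.2, 15.5 and 12.2 CPM after subcutaneous RTX, against 7.62 and 8.70 CPM with vehicle. All RTX values were above both vehicle values, and RTX replicate 1 stood highest. The log2 difference was 1.15 ± 0.36 (means 18.3 ± 7.89 and 8.16 ± 0.759 CPM), and 0.75 without that library. GOF recipients had 5.87 and 4.84 CPM, against 9.72 and 8.24 CPM in WT recipients, without overlap (-0.73 ± 0.22). After intrathecal RTX Cxcr5 had 6.31, 8.09 and 5.12 CPM, against 6.91 and 8.56 CPM with vehicle, so the groups overlapped (-0.24 ± 0.21).

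B cell markers had differences of the same sign as Cxcr5 in the subcutaneous and chimera comparisons. All 16 genes of the B cell list had positive differences after subcutaneous RTX, with a median of 1.11, and the list summed to 381 to 652 CPM in RTX libraries, against 221 to 240 CPM in vehicle libraries. Of the 16 genes 0 passed the threshold on adjusted p in edgeR, while 13 had an unadjusted p under 0.05. Over all 17363 genes tested there, 3153 did, 1557 of them higher. The list was chosen with earlier results of these data known. Cr2, the complement receptor of follicular B cells, had 6.86 ± 0.656 CPM after RTX and 2.91 ± 0.221 CPM with vehicle (1.22 ± 0.20, adjusted p = 0.0973). Spib, a B cell transcription factor, had 36.3 ± 7.61 CPM after RTX, against 15.9 ± 1.89 CPM with vehicle (1.18 ± 0.18, adjusted p = 0.0973). In GOF recipients all 16 had negative differences (median -0.69) and the list summed to 182 to 197 CPM, against 297 to 299 CPM in WT recipients. There only Fcer2a, the low-affinity IgE receptor CD23, fell past the threshold (-0.84 ± 0.17, adjusted p = 0.0463), and it lost its call without either GOF recipient, without WT recipient 2 and in the other alternatives that ended the call of Cd3e. After intrathecal RTX the list summed to 167 to 229 CPM, against 167 to 176 CPM with vehicle, and 0 of 16 passed (median 0.10). The part of B cell number in the Cxcr5, Cxcl13 and Ltb values was not tested.

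Of the list of follicular helper T cells and germinal centre, 1 of 9 genes tested fell in GOF recipients and 0 rose (median -0.76). That gene was Icos, a costimulatory receptor (-0.85 ± 0.17, adjusted p = 0.0461), whose call was lost in the same alternatives as that of Cd3e. After subcutaneous RTX 0 of 11 passed, with a median of 0.10. Mef2b, a germinal centre transcription factor, had 0.827 ± 0.513 CPM there and 0.281 ± 0.0486 CPM with vehicle (adjusted p = 0.285), and Sh2d1a, the adaptor SAP, differed by -0.63 ± 0.31 (adjusted p = 0.320).

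Ltb (ENSMUSG00000024399.5, chr17:35194439-35196320, plus strand, overlapping Mir6973a) encodes the membrane anchor of the lymphotoxin heterotrimer. It had 31.9, 29.6 and 41.4 CPM after subcutaneous RTX, against 17.998 and 17.8 CPM with vehicle. The groups did not overlap, and the means of 34.3 ± 6.25 and 17.9 ± 0.148 CPM gave a log2 difference of 0.92 ± 0.15. GOF recipients had 26.04 and 16.4 CPM, against 22.8 and 28.5 CPM in WT recipients, with overlap (-0.26 ± 0.22, with -0.64 without GOF recipient 1 and 0.03 without GOF recipient 2). After intrathecal RTX it had 19.1, 17.99 and 13.0 CPM, against 15.7 and 16.6 CPM with vehicle, and the vehicle values lay within the RTX range (0.06 ± 0.16).

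The lymphotoxin and noncanonical NF-kappaB list holds the ligands, receptors and signal relays around Ltb. After subcutaneous RTX 0 of its 19 genes passed and 15 had positive differences, with a median of 0.20. Tnfrsf13c, which encodes the BAFF receptor of B cells, had 11.6 ± 3.37 CPM after RTX and 4.65 ± 0.0660 CPM with vehicle (1.31 ± 0.25, adjusted p = 0.113). Traf3, a brake on the noncanonical pathway, differed by 0.33 ± 0.08 (adjusted p = 0.136). Lta, the partner chain of Ltb, differed by 0.43 ± 0.33 and the receptor gene Ltbr by -0.02 ± 0.08 (adjusted p = 0.528 and 0.935). In GOF recipients 0 of 19 passed and 3 had positive differences, with a median of -0.31. The ubiquitin ligase gene Birc3 had 49.6 ± 1.61 CPM there and 71.2 ± 3.61 CPM in WT recipients (-0.51 ± 0.12, adjusted p = 0.0802), and Tnfrsf13c differed by -0.97 ± 0.25 (adjusted p = 0.119). After intrathecal RTX 0 of 19 passed, with a median of 0.02, Relb at 0.22 ± 0.08 and Birc2 at -0.28 ± 0.10 (adjusted p = 0.313 and 0.330).

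**Figure D3:**
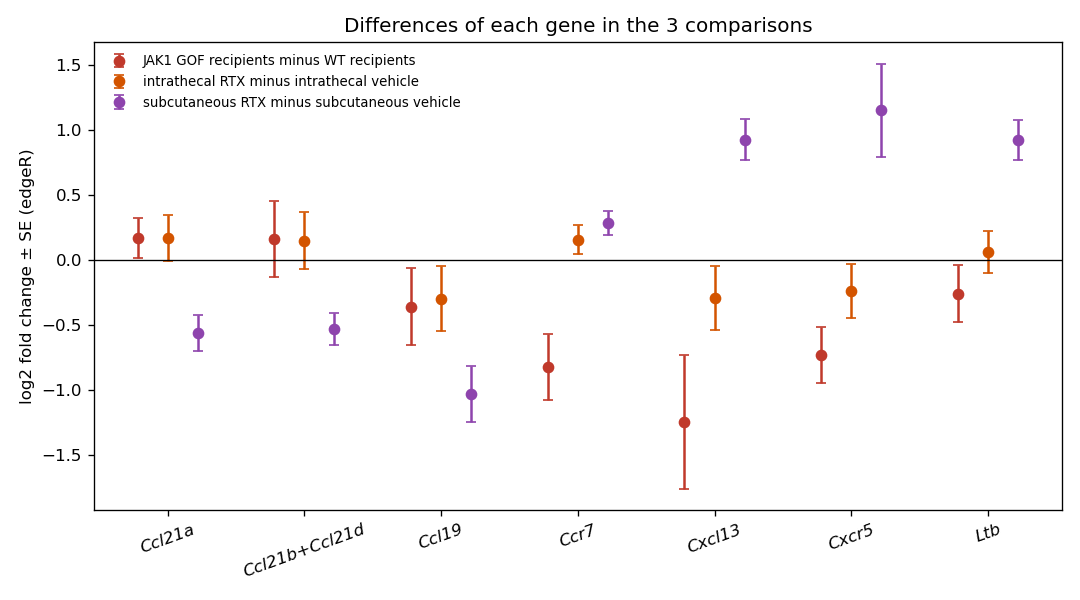
Points show the log2 fold change of each gene and bars its SE from edgeR, for JAK1 GOF minus WT recipients, intrathecal RTX minus vehicle and subcutaneous RTX minus vehicle. Cxcl13, Cxcr5 and Ltb lie between 0.92 and 1.15 after subcutaneous RTX, where Ccl19 lies at -1.03, while the intrathecal points lie between -0.30 and 0.17.

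Counted over the 8 genes, 6 had subcutaneous groups that did not overlap, 4 higher and 2 lower. Over all 17363 genes tested there, groups did not overlap for 38.3%, 20.5% higher and 17.8% lower. In the chimera comparison 7 of the 8 genes passed the low-count filter and 3 had groups that did not overlap, all lower in GOF recipients, where 42.6% of 17298 genes did not overlap, 19.6% higher and 23% lower. In the intrathecal comparison only Ccl21b and Ccl21d did not overlap, where 30.3% of 17360 genes did not. These genes were chosen with all of these values known, so nothing is read from the counts. By edgeR's adjusted p under 0.05, 0 of the 8 genes passed in the chimera comparison (0.717% of all genes called) and 0 in the subcutaneous comparison (0% called). The subcutaneous comparison had 3153 genes at an unadjusted p under 0.05, while DESeq2 called 744 genes and limma voom 0.

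Across the 6 groups, Ccr7 was highest in subcutaneous RTX libraries, followed by subcutaneous vehicle libraries, and the other groups overlapped each other except GOF recipients, which were lowest. Cxcr5 was likewise highest after subcutaneous RTX (12.2 to 27.2 CPM) and lowest in GOF and intrathecal RTX libraries, whose ranges overlapped. Ltb was also highest after subcutaneous RTX (29.6 to 41.4 CPM), with 28.5 CPM in WT recipient 2 just below. Cxcl13 differed from these in that its highest value, 56.0 CPM, was in WT recipient 2. The experiments were deposited as separate tables, and only the chimera mice received marrow. Xist had 62.9 to 132 CPM in chimera libraries, against 0.913 to 5.11 CPM in the other libraries. Levels across experiments are therefore a description.

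Per kilobase of exons, Ccl21a had the highest level of the 8 genes in all 6 groups, from 48.4 ± 8.43 CPM per kb after subcutaneous RTX to 70.6 ± 1.64 CPM per kb with subcutaneous vehicle. The sum of Ccl21b and Ccl21d, taken over the exon length of Ccl21d, came second in 4 groups. Cxcl13 came second in WT recipients, at 34.95 ± 19.4 CPM per kb, and in subcutaneous RTX libraries, at 30.5 ± 0.743 CPM per kb. In WT recipients its range included that of the summed copies, and in subcutaneous RTX libraries the ranges overlapped (29.8 to 31.2 and 22.9 to 30.0 CPM per kb). Cxcr5 had the lowest level per kb in 5 groups and Ccl19 in the subcutaneous RTX group, at 4.28 ± 0.776 CPM per kb, where its range overlapped that of Cxcr5 at 5.499 ± 2.37 CPM per kb.

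Genes with the pattern most like each gene were sought among 14068 candidates over the 14 libraries. The measure was the root-mean-square difference of log2(CPM + 0.5) after each experiment's mean was subtracted. Candidates were tested in every comparison and had a mean of at least 1 CPM. They left out predicted or clone-named genes and all genes described here, so the latter were not compared with each other. For Cxcr5 they included Ms4a1 and Blk, at 0.15 and 0.16, where Cxcr5 itself departed from its experiment means by 0.45. Ccr7 was closest to Btla, Cd69 and Ddb2 (0.14 to 0.15, against its own 0.28). Ltb was closest to Cotl1, Hcst and Ptpn7 (0.18 to 0.19, against 0.34). Cxcl13 had no candidate nearer than Top2a, Chia1 and Kcna3 (0.25 each, against 0.52). Ccl19 was closest to Igfbp3, Cib2 and Map7d3 (0.18 to 0.19, against 0.39). Ccl21a was closest to Cdiptos, Plekhd1 and Kcnj8 (0.10 to 0.13, against 0.26). Cdiptos was also the candidate closest to the sum of Ccl21b and Ccl21d (0.16), with which Ccl21a itself was not compared. Ccl21b alone came no closer to any candidate than 1.69, for Hspa1b, and Ccl21d alone no closer than 2.00, for Hmga2.

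Other lymphocyte and dendritic cell chemokines and atypical receptors were tested as a further list. In GOF recipients 1 of 17 genes tested fell and 0 rose, with a median of -0.44. It was Ccl22, a dendritic cell chemokine that binds CCR4, at 17.2 ± 2.25 CPM in GOF recipients and 41.3 ± 10.9 CPM in WT recipients (-1.26 ± 0.19, adjusted p = 0.0267). Its call was lost without either GOF recipient and with limma voom. After subcutaneous RTX 0 of 17 passed, with a median of 0.07. The CCL20 receptor gene Ccr6 had 5.33 ± 0.513 CPM there and 1.90 ± 0.456 CPM with vehicle (1.47 ± 0.25, adjusted p = 0.1003), and the CXCL12 receptor gene Cxcr4 had 52.5 ± 2.95 CPM, against 37.0 ± 3.04 CPM (0.49 ± 0.09, adjusted p = 0.106). After intrathecal RTX 0 of 18 passed, with a median of 0.08, Cxcr4 at -0.29 ± 0.12 and Ccr6 at -0.65 ± 0.37 (adjusted p = 0.409 and 0.535).

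Over all 11 lists, 5 of 121 genes tested rose and 6 fell in GOF recipients, while 0 of 121 passed after intrathecal RTX and 0 of 123 after subcutaneous RTX in edgeR. At an unadjusted p under 0.05 there were 7 higher and 51 lower of 121 in the chimera comparison. Over all 17298 genes tested there, 801 were higher and 1200 lower. The intrathecal comparison had 10 higher and 4 lower of 121, against 1016 higher and 977 lower of all 17360 genes. The subcutaneous one had 34 higher and 6 lower of 123, against 1557 higher and 1596 lower of all 17363 genes. DESeq2 called 1 intrathecal and 24 subcutaneous list genes, and limma voom 0 in each of these comparisons. The T cell list had the largest intrathecal median of the lymphocyte lists, at 0.22, with Cd3d at 10.7 ± 2.80 CPM after RTX and 5.93 ± 0.790 CPM with vehicle (0.86 ± 0.22, adjusted p = 0.190). The intrathecal medians were 0.07 for lymphatic endothelium, 0.07 for lymphoid stroma and 0.04 for dendritic cells.

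All 5 list genes that rose in GOF recipients were heart muscle genes. They included Tnnt2, a troponin, at 94.7 ± 10.5 CPM in GOF recipients and 44.5 ± 6.57 CPM in WT recipients (1.10 ± 0.14, adjusted p = 0.0114), and Myl7, the atrial myosin light chain, at 52.2 ± 9.67 CPM and 20.5 ± 4.05 CPM (1.36 ± 0.18, adjusted p = 0.0158). Pln and Sln, inhibitors of the muscle calcium pump, rose by 1.34 ± 0.18 and 1.51 ± 0.22 on the log2 scale (adjusted p = 0.0123 and 0.0183). Sln lost its call without GOF recipient 1, and these 4 genes were not called when all 14 libraries were fitted together. The 8 genes of this list had a median of 1.24 and summed to 527 to 545 CPM in GOF recipients, against 241 to 347 CPM in WT recipients. After subcutaneous RTX all 8 had negative differences (median -0.88), with sums of 138 to 173 CPM, against 116 to 417 CPM with vehicle. The part of heart muscle in the lymphoid values was not tested.

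Lists of other tissues that make these genes were low. Thymus genes, from the organ that also makes CCL21, summed to at most 10.7 CPM in a GOF recipient and 16.3 CPM in a WT recipient. Rag2, a defining gene, was at 0 in every library, and Rag1, Foxn1 and Psmb11 were at 0 in all subcutaneous libraries. Of the thymus list 0 of 2 or 3 genes tested passed in any of the 3 comparisons. Type 3 innate lymphoid cell genes, from cells that carry lymphotoxin, summed to 7.03 to 18.4 CPM over the libraries, and 0 of 1 to 3 genes tested passed in any comparison. Their medians were -0.64 over 2 genes after subcutaneous RTX and -0.14 over 3 genes in GOF recipients, and their part in the Ltb values was not tested.

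**Figure D4:**
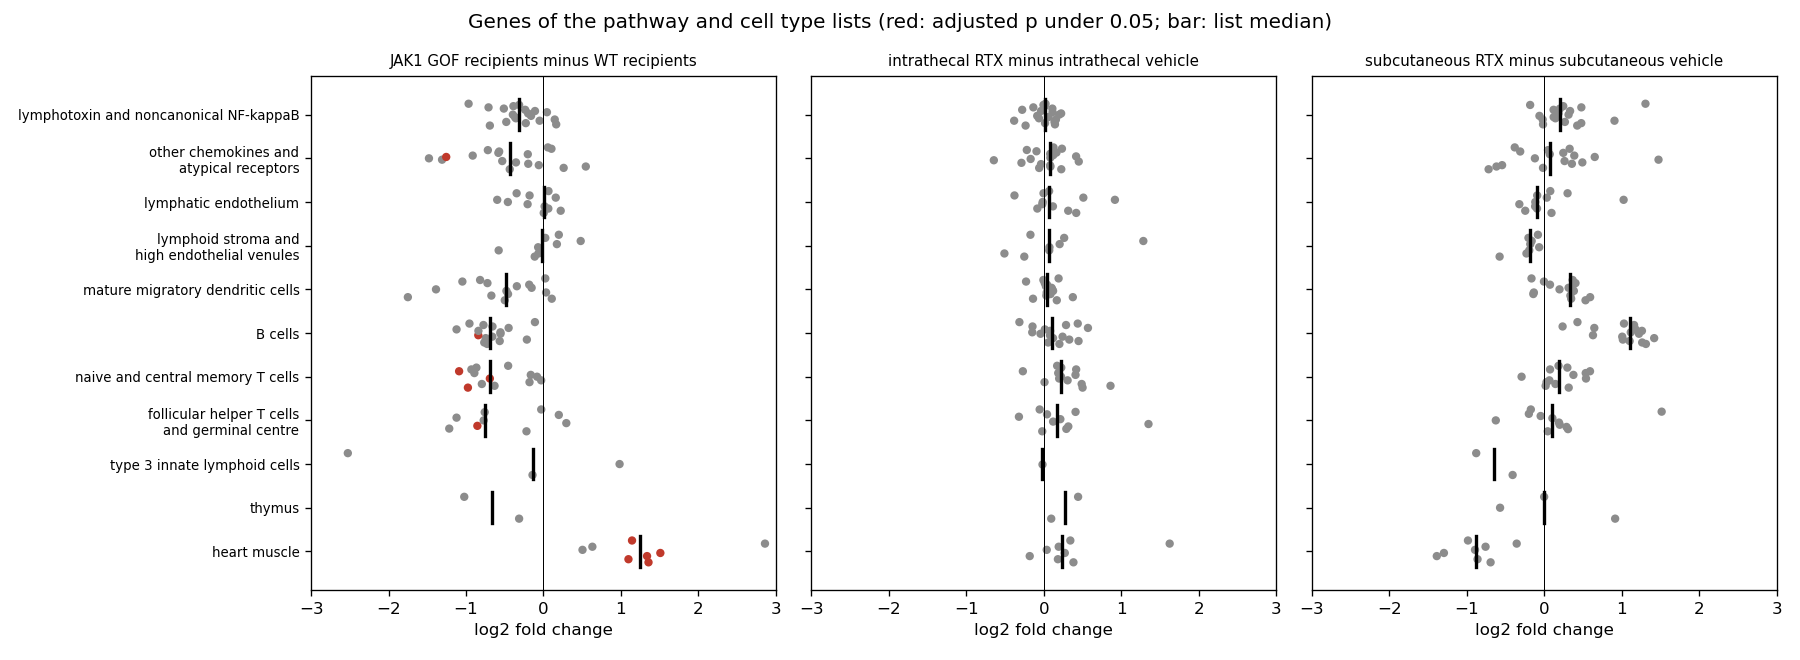
Each point is the log2 fold change of 1 gene of a list in 1 comparison, red where the adjusted p was under 0.05, and the bar is the median of the list. The B cell points lie below 0 in GOF recipients and above 0 after subcutaneous RTX, with medians of -0.69 and 1.11, and only the GOF panel holds red points.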

How the data were processed

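Lung mRNA of 14 libraries was analysed. Per the submitters' processing notes, the tools were FastQC 0.11.8, Trim Galore 0.6.6, STAR 2.7.5b and Salmon 1.2.1, with the build GRCm38. Neither the annotation release nor whether counting used strand is given in the sources used here, so reads of genes that overlap on opposite strands may not have been told apart. The authors deposited 1 estimated count per gene and library in 3 tables, 1 per experiment; 24.2% of all values and 63.4% of those of the 8 genes were not whole. Symbols came from the tables, and GENCODE M21 held the same version of 53307 of 54347 identifiers, including 7 of the 8 genes. Sequences and positions came from M21 and RefSeq, with a RefSeq promoter for 6 of the 8 genes.

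Estimated counts were rounded to whole numbers. CPM is the count per 1e+06 total counts of a library. Each experiment was fitted alone in R 4.3.3 with edgeR 4.0.16 (TMM, filterByExpr with a minimum count of 10 and total of 15, robust quasi-likelihood F test, Benjamini-Hochberg over all genes tested, threshold 0.05). Ccl21b and Ccl21d were also fitted as 1 sum in place of the single copies, and likewise all 3 copies. SE is the size of the fitted log2 difference divided by the square root of its F statistic. Floors of 3 counts cover counting error only, since PCR copies were not marked. Replicates differed beyond sampling noise (chi-square per degree of freedom 8.91 to 21.3), so each library counted once. The procedure was tested on simulated data that gave every gene the same spread beyond sampling noise, unlike real genes. Of 100 simulated 2-fold changes it recovered 57 in the chimera, 60 in the intrathecal and 76 in the subcutaneous design. Of 100 simulated 4-fold changes it recovered 99, 99 and 98, and false calls numbered 10, 14 and 8. A gene that did not pass may therefore still differ between groups.

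The 8 genes and the 11 lists (138 genes) were chosen with earlier results of these data known. The rule named, besides the 8 genes and other copies at the locus, up to 4 called genes per list (the 2 of lowest p where no gene was called), Jak1, Xist, Rps3a2 and Hmga2, and the 3 genes most like each of the 8. A few genes that the rule named are not reported here. Lta and Ltbr were added for their role in the pathway. Alternatives were DESeq2 1.42.0 and its size factors, total counts, other filters, a joint fit of all 14 libraries, limma 3.58.1 voom, a prior that was not robust, the looser threshold of 0.1, a replicate block, and each library omitted in turn. Figures were drawn with matplotlib 3.10.9.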

Additional observations from a re-analysis of the deposited data

How the results depend on the processing

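The 8 genes and their sums gave 397 values over genes, comparisons and alternatives. Of these, 379 stayed within 1 SD of the replicates and 18 did not. That SD came from the same libraries, so omitting 1 of them could seldom move a value beyond it. Stability is therefore not read from these counts. In addition, 20 of 29 pairs of gene and comparison kept 1 sign. In the chimera comparison 124 genes were called. This became 286 at an adjusted p of 0.1, 807 with no filter, 309 with DESeq2, 45 with voom, 79 with no robust prior, 50 with all 14 libraries in 1 fit, and 83 to 919 without single libraries (919 without WT recipient 1 and 303 without WT recipient 2); 11 list genes became 27, 41, 23, 5 with voom, 6 in the joint fit and 6 to 35. In the intrathecal comparison 54 genes became 123, 655 with no filter, 247 with DESeq2, 34 with no robust prior, 7 in the joint fit and 19 to 40 without single libraries (19 and 33 when RTX replicates 2 and 3 were omitted, 32 when vehicle replicate 1 was), and 0 list genes became 5 with no filter, 1 with DESeq2 and 0 to 1 without single libraries. In the subcutaneous comparison 0 genes became 62, 807 with no filter, 744 with DESeq2, 71 in the joint fit and 0 to 871 without single libraries (871 when vehicle replicate 2 was omitted, 12 when RTX replicate 1 was), and 0 list genes became 2, 15, 24, 2 and 0 to 21. The cause was not tested. Where an omission left 1 library in a group, that library was assumed to vary like the other group. Replicate numbers gave no pairing (correlations of deviations 0.03 in the chimeras, -0.19 and -0.15 intrathecally, -0.10 and -0.07 subcutaneously). With the replicate number as a block, 123, 50 and 0 genes and 9, 1 and 0 list genes were called. The split between Ccl21b and Ccl21d cannot be resolved by depth where their sequence is identical.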
